A study of Mus musculus with 2 samples.

Results

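The genes described here encode the coat and neck proteins of caveolae, and were followed in primary mouse osteoblasts 6 h after a change of extracellular phosphate. The 7 genes are Cav1, Cav2, Cavin1, Cavin2, Cavin3, Ehd2 and Pacsin2. They were taken as every probe set whose annotation named one of these genes and no other, which gave 15 of the 45037 probe sets other than manufacturer's controls, and 6 of 18193 named genes. Pacsin2 had no such probe set and was not analysed here. The genes were proposed with earlier results of these 2 arrays in view, above all the low value of Cavin2, so their signals are given as a description, without a test.

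Osteoblasts, the bone-forming cells, came from the calvariae of C57BL/6 mice aged 5 days, and per the labels' protocols were grown for 3 days in medium with 10% serum and then kept without serum overnight. The control group was 1 culture in serum-free a-MEM with 1 mM phosphate, and the phosphate group was 1 culture in the same medium brought to 4 mM with a 0.5 M sodium phosphate solution, so the groups differed in sodium as well. Both media were at pH 7.2, both groups had been deprived of serum, and no genotype other than the strain is named. How many mice supplied each culture is not given in the sources used here. With 1 array per group there was no replicate error, and every difference describes these 2 arrays.

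Caveolae are small flask-shaped pits of the plasma membrane, rich in cholesterol. Caveolins insert into the inner leaflet of the membrane and build the pit, cavins form a second coat on its cytoplasmic side, and EHD2 and pacsin 2 sit at the neck, where they stabilise the pit and shape the membrane. Caveolae flatten when the membrane is stretched and serve as a reserve of membrane. They are abundant in adipocytes, endothelium and muscle and are also present in osteoblasts, where loss of caveolin-1 in mice has been linked to altered bone formation.

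Of the 6 genes with a value, 1 was at least 2-fold lower in 4 mM phosphate (Cavin2), 1 was at least 2-fold higher (Cav1), and 4 lay within 1.5-fold. Among all 12276 measured genes, 2.92% were at least 2-fold lower, 2.3% were at least 2-fold higher and 80.6% lay within 1.5-fold. These shares depend on the setting, with 14.1% lower and 1.05% higher when spiked-in poly-A RNAs are set equal, and 9.73% and 11.2% without a signal floor. Since the genes were chosen on this contrast, nothing is read from the shares. The median log2 ratio, phosphate minus control, was −0.11 over the 6 genes and −0.06 over all measured genes. The median stands between opposite values, because Cav1 and Cavin2 were 3.60 apart on the log2 scale. In such bulk RNA, fewer cells of a type and less RNA per cell cannot be told apart.

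The stretches before the start sites of Cavin2, Cav1 and Cav2 are shown because these genes had the lowest and the 2 highest ratios, and because Cav2 and Cav1 lie side by side. Each is the 250 bases upstream of a RefSeq transcription start in GRCm38.p6, read 5′ to 3′ on the plus strand, with capitals marking matches on either strand to the motifs searched. The intervals are chr1:51288876-51289125 for Cavin2, chr6:17306085-17306334 for the more upstream of 2 Cav1 starts, and chr6:17280935-17281184 for Cav2.
Cavin2: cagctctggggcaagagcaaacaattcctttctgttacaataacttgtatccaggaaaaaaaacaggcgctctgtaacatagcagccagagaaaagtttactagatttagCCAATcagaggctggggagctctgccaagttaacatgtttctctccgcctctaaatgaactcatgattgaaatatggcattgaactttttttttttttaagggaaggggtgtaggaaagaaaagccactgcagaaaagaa
Cav1: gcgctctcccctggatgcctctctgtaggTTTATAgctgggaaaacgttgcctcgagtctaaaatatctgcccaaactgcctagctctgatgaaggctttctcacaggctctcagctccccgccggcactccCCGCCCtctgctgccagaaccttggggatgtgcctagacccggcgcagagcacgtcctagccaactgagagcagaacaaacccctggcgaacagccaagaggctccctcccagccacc
Cav2: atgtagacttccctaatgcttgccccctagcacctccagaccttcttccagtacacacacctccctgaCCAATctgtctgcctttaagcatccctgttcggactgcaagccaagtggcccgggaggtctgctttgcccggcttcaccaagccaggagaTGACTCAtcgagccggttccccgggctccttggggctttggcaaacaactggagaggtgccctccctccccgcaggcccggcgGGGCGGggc

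The motifs were the CArG box of serum response factor, the AP-1 site TGANTCA, the GC box GGGCGG, the CCAAT box CCAAT, the TATA box TATAAA and the core of the cAMP response element, TGACG. They were searched on both strands in the same 250 bases of all 32851 promoters of the table. None of these patterns contains another. The Cavin2 stretch held a CCAAT box, 136 to 140 bases upstream of the start, and no match to the others. A CCAAT box occurred in 33.8% of all promoters. The Cav1 stretch held a GC box 113 to 118 bases upstream and a TATA box match on the minus strand, 216 to 221 bases upstream, motifs found in 32.7% and 12.4% of promoters. The second Cav1 stretch held none of the motifs. The Cav2 stretch held an AP-1 site 86 to 92 bases upstream, a motif of 6.75% of promoters, as well as a CCAAT box and a GC box. Guanine and cytosine made up 40.4% of the Cavin2 stretch, against 59.6% for Cav1, 62.0% for Cav2 and 67.6% for Cavin1. The median over all promoters was 52.4%, with quartiles of 45.2% and 61.2%. None of the stretches of these genes held a CArG box (1.47% of promoters). In all, 6 of the 7 genes matched the promoter table. A match of letters is a description and shows no binding.

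The values are MAS5 signals, the summary of several probe pairs that the array maker's software gives for a probe set. Probe sets differ in affinity, so signals are compared between arrays for one probe set, and not between genes. The floor was the median of all signals, 21.5. Of the 15 probe sets, 11 were above the floor on both arrays, 1 on the control array only, and 3 on neither. The plot of all 15 probe sets shows the 3 steep lines of Cavin2 next to the mostly flat lines of the other genes.

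**Figure D1:**
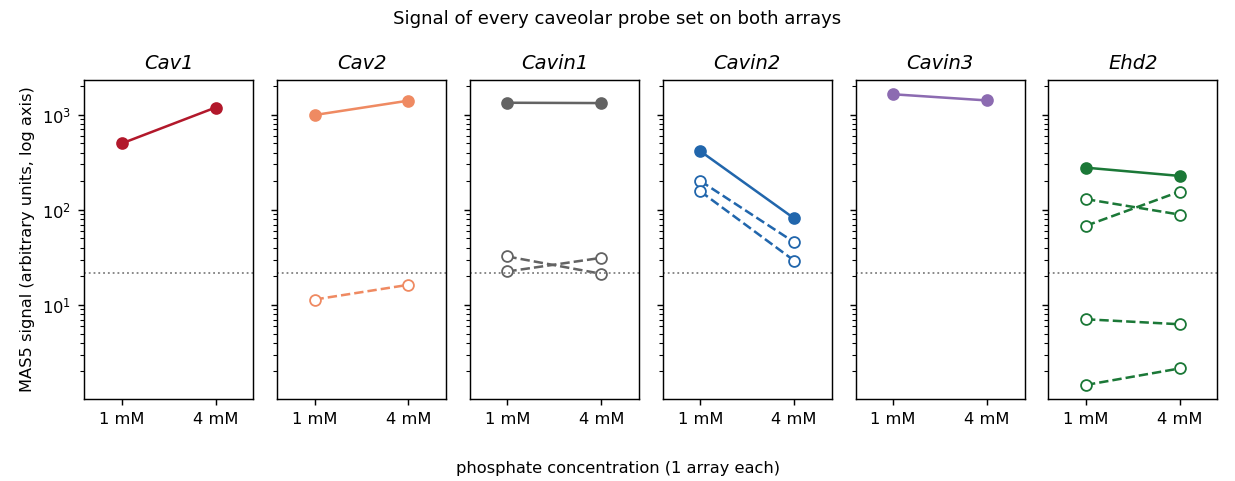
MAS5 signal (log axis) of each of the 15 probe sets on the control array (1 mM phosphate) and the phosphate array (4 mM), 1 panel per gene. Filled points and solid lines mark the probe set used for the gene, open points and dashed lines the others, and the dotted line is the floor at 21.5. All 3 lines of Cavin2 slope down, that of Cav1 slopes up, and those of Ehd2 cross.

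Among the caveolins, Cav1 was the member with the highest ratio. It encodes caveolin-1, the main structural protein of caveolae outside striated muscle. Its single probe set gave a signal of 498 in 1 mM phosphate and 1188 in 4 mM phosphate. This was 2.39-fold higher, a log2 ratio of 1.25. Of 11174 genes above the floor on both arrays, 1.29% had a ratio as high or higher. As the only probe set for the gene, it has no second reading on the arrays.

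Cav2 encodes caveolin-2, which forms hetero-oligomers with caveolin-1 and depends on it to reach the plasma membrane. Its brighter probe set read 991 in the control and 1404 in phosphate, 1.42-fold higher, a log2 ratio of 0.50. Both caveolin genes thus had the higher signal in 4 mM phosphate, Cav2 by a smaller ratio than Cav1. The second Cav2 probe set was below the floor on both arrays, at 11.4 and 16.3, and gives no ratio. Against poly-A spikes, bacterial RNAs carried through labelling that were themselves brighter on the phosphate array, the log2 ratios became 0.79 for Cav1, no longer 2-fold, and 0.04 for Cav2.

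Among the cavins, Cavin2 stood apart. It encodes cavin-2, also called serum deprivation response protein, which binds phosphatidylserine and, when overproduced, draws caveolae into tubules. Its brightest probe set read 414 in the control and 81.3 in phosphate. The second read 201 and 45.7, and the third read 157 and 29.2. All 3 were lower in 4 mM phosphate, and all stayed above the floor there. The folds were 5.09, 4.41 and 5.36 lower, and the log2 ratios −2.35, −2.14 and −2.42. Of 1928 genes with 3 or more probe sets that exceeded the floor on each array, in 1 gene (0.0519%), Cavin2, each was at least 4-fold lower. At 2-fold the count was 2 of 1928 (0.104%). Cavin2 was proposed with its low value in view, so nothing is read from these shares.

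Probe sets of one gene give a technical yardstick, which leaves out any difference between cultures. Within each range of the dimmer signal, their log2 ratios were set against the mean of the gene's probe sets in that range. The standard deviation was 0.42 between the floor and 100, 0.26 from 100 to 400, and 0.16 above 400. Disagreement between bright and dim probe sets of a gene is left out. The 3 ratios of Cavin2 lay within 0.28 of each other, and each was several times the spread of probe sets of that brightness. The ratio of Cav1 (1.25) and that of Cav2 (0.50) also exceeded the spread at their brightness (0.16). Since the genes were proposed with these ratios in view, the comparison describes agreement between probe sets and lends the ratios no support. How far cultures treated alike would differ was not measured.

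Cavin1 encodes cavin-1, the cavin that is needed for caveolae to form. Its brightest probe set read 1334 in the control and 1324 in phosphate, a log2 ratio of −0.01. The dimmer probe sets lay close to the floor and pointed apart. One read 22.5 and 31.3 (log2 ratio 0.48), and the other read 32.3 in the control and 21.3, under the floor, in phosphate, which bounds its log2 ratio at −0.59 or lower. The brightest probe set differed by less than the spread of 0.16 between probe sets.

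Cavin3 encodes cavin-3, which binds protein kinase C delta and takes part in caveola trafficking. Its single probe set read 1638 in the control and 1411 in phosphate. The log2 ratio was −0.22, or 1.16-fold lower, slightly more than the spread of 0.16 at this brightness. The probe sets used for Cavin1 and Cavin3 thus stood at −0.01 and −0.22, against −2.35 for Cavin2, a distance that was not tested.

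At the neck of the caveola, Ehd2 encodes an ATPase of the EHD family that assembles in rings and holds caveolae at the cell surface. Its probe sets disagreed. The brightest read 277 in the control and 227 in phosphate, a log2 ratio of −0.29, and the next read 129 and 89.0 (−0.54). Another went the other way, from 68.0 to 156, 2.29-fold higher, a log2 ratio of 1.20. The remaining pair of probe sets was below the floor on both arrays, with signals of 7.08 or less. Of 4954 genes with 2 or more probe sets that exceeded the floor on each array, 0.747% had such a split. It was counted as one at least 2-fold higher and another below the control. The reverse split was not counted, so the share does not show how often probe sets disagree. No direction is given for Ehd2.

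Counted by probe set, 3 of the 12 measured were at least 2-fold lower, all of Cavin2, and 2 were at least 2-fold higher, of Cav1 and Ehd2. Over all 24159 measured probe sets the shares were 2.5% and 2.77%. Cavin2 had the third lowest ratio of the 11174 genes above the floor on both arrays. The distribution plot shows it in the thin lower tail, Cav1 on the upper shoulder, and the remaining genes within the bulk.

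**Figure D2:**
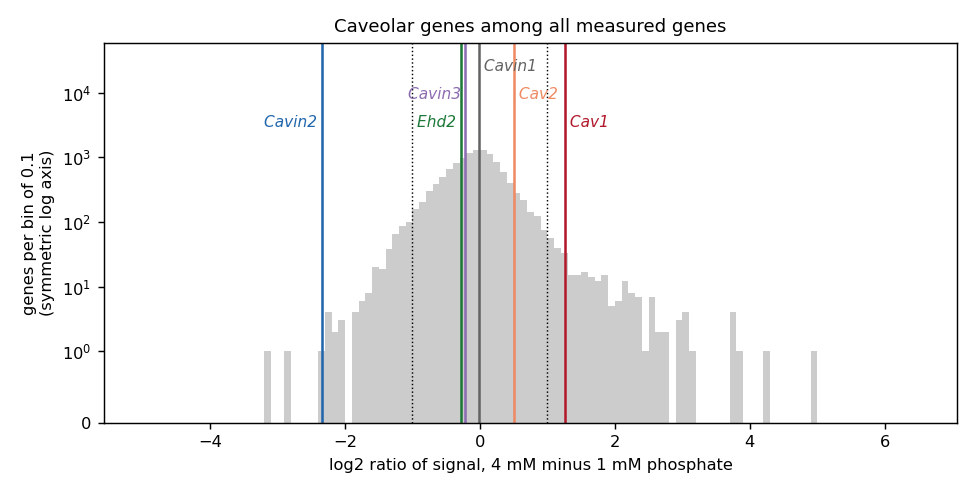
Number of genes per bin of 0.1 in log2 ratio (symmetric log axis) for all 12276 measured genes, with coloured lines at the 6 caveolar genes and dotted lines at 2-fold. Cavin2 lies at −2.35, Cav1 at 1.25, and the other 4 between −0.29 and 0.50.

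The genes next to Cavin2 in the order of log2 ratios were taken by rank, over 2 arrays and with clone-derived names left out, so those below it can lie farther off than genes above it. Below it were Sost, the gene of the Wnt inhibitor sclerostin, at −3.17, and Adh1, an alcohol dehydrogenase gene, at −2.90. Next above it were Rassf4 at −2.27, Fbxo2, which encodes the substrate-binding part of a ubiquitin ligase for glycoproteins, at −2.23, and Nexn, the gene of the actin-binding protein nexilin, at −2.21. Fbxo2 read 533 and 114, and Nexn 271 and 58.5, each on a single probe set. Rassf4 read 142 and 29.6, but its other measured probe set read 67.9 and 61.3, so that among these genes it was the one with a second probe set near no change. A single ratio from 2 arrays cannot show that these genes vary together.

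Relatives of the caveolar genes outside the set did not include a 2-fold value. The shares over all measured genes, for these and the lists below, were 2.92% lower and 2.3% higher by 2-fold, and 80.6% within 1.5-fold. Of 7 paralogs, all were measured, 6 lay within 1.5-fold, and all 7 ratios were above 0, with a median of 0.40. For comparison, 44.3% of the 11174 genes above the floor on both arrays had a ratio of −0.01 or higher. All 7 stayed above 0 after quantile normalization and loess, whereas 3 were above 0 and 4 below once the poly-A spikes were equated. Ehd1, whose product recycles receptors from endosomes, read 586 and 773 (log2 ratio 0.40), and its other probe sets gave 0.46, 0.53 and 0.74. Ehd4 was at 0.48 on its only probe set, from 212 to 296. Ehd3 was at 0.02, with 0.04 on its second probe set. The muscle caveola genes Cav3 and Cavin4 were at 0.03 (103 and 105) and 0.52 (133 and 190). The ratios of Ehd3 and Cav3 were smaller than the spread of 0.26 between probe sets of that brightness. Pacsin1, the neuronal pacsin gene, was dim, at 29.7 and 46.3, a log2 ratio of 0.64. Pacsin3 gave 0.20, 0.08 and −0.40 on its 3 probe sets, from brightest to dimmest in phosphate. Flot1 and Flot2, genes of the flotillins, which organise membrane domains without forming caveolae, were at −0.01 and 0.02.

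Clathrin coats and dynamins serve the main other route of uptake from the plasma membrane, and dynamin 2 also acts at the caveola neck. Of 20 genes listed, 18 were measured, none was 2-fold higher or lower, and 16 lay within 1.5-fold. The median was 0.04. Dnm2 was at 0.31 on the probe set used, from 111 to 137, but its 6 probe sets above the floor ranged from −0.56 to 0.84. Dnm1 was at −0.44, from 348 to 256, and Dnm3 was dim, at 27.5 and, under the floor, 18.9. The highest members were the epsin genes Epn1 and Epn2 at 0.69 and 0.59, whose products bend membrane at clathrin pits. The clathrin heavy chain gene Cltc read 3455 and 3594, a log2 ratio of 0.06.

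Among 21 receptors and signalling proteins described at caveolae, 19 were measured, 1 was at least 2-fold lower, none was 2-fold higher, and the median was −0.09. The lower one was Egfr, the epidermal growth factor receptor gene, from 759 to 362 (−1.07) on its brightest probe set. Its other probe sets above the floor gave −0.56, 0.15 and 0.22, so they disagree. Protein kinase C alpha binds cavin-2 and protein kinase C delta binds cavin-3. Their genes Prkca and Prkcd were at 0.10, from 244 to 262, and 0.38, from 177 to 231. Bmpr1a, a BMP receptor gene, was at −0.51, from 1721 to 1208, on its brightest probe set. The others above the floor gave −0.68, −0.38, −0.06 and 0.19. Flna, the gene of the actin cross-linker filamin A, which ties caveolin-1 to stress fibres, was at −0.20.

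Cholesterol is needed for caveolae to hold their shape. Of 11 genes of cholesterol supply and efflux, 8 were measured, none was 2-fold higher or lower, and 7 lay within 1.5-fold, with a median of −0.06. The lowest was Abcg1, a sterol exporter gene, at −0.94 from a dim 65.5 to 34.2. Npc1 and Npc2, which carry cholesterol out of lysosomes, were at 0.26 and 0.06.

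Caveolar genes have been described among targets of mechanosensitive transcription, and 17 targets of SRF and YAP were listed. All 17 were measured, 2 were at least 2-fold lower, none was 2-fold higher, 14 lay within 1.5-fold, and the median was −0.07. The lower ones were Nexn and Ankrd1. Ankrd1, a YAP target that encodes a muscle ankyrin-repeat protein, read 58.5 and 25.4 (−1.20), with −1.03 on its second probe set. Nexn was known from earlier results to be low when the list was written. Myl9, a myosin light chain gene, went from 5390 to 3023 (−0.83). Of other YAP targets, Ccn1 and Ccn2 were at 0.23 and 0.17. Acta2 and Tagln, smooth muscle genes controlled by SRF, were at −0.15 and −0.06.

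**Figure D3:**
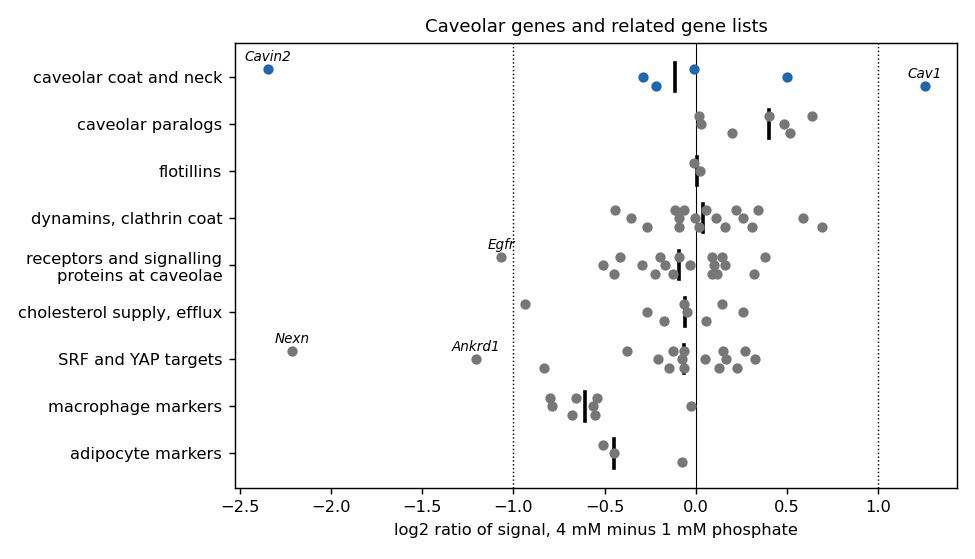
Log2 ratio, 4 mM minus 1 mM phosphate, of each measured gene in the caveolar set (blue) and in related or cell type marker lists (grey), with black bars at the medians and dotted lines at 2-fold. Genes past 2-fold are named. The caveolar set, chosen with earlier results known, lies between −2.35 and 1.25, and the paralogs lie between 0.02 and 0.64.

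Cav2 and Cav1 are neighbours, with the Cav2 start and the upstream Cav1 start 25150 bases apart on chromosome 6 and both genes on the plus strand. The protein-coding genes on either side of each caveolar gene were therefore read as well, a step chosen after the ratios of Cav1 and Cav2 were seen. Tes, the gene just before Cav2, encodes testin, a LIM-domain protein of focal adhesions. It read 216 and 610 on one probe set and 110 and 391 on the other, 2.83-fold and 3.55-fold higher. Thus Tes, Cav2 and Cav1, in chromosome order, were 2.83-fold, 1.42-fold and 2.39-fold higher. Beyond Cav1, Met, the hepatocyte growth factor receptor gene, read 42.8 and 47.5 (0.15), and Capza2, the gene of an actin-capping subunit, 3038 and 3138 (0.05). Once the poly-A spikes were equated, the log2 ratio of Tes was 1.04 and those of Met and Capza2 were −0.31 and −0.42.

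No measured neighbour of Cavin2 shared its low ratio. Only 0.0268% of the 11174 genes above the floor on both arrays had a ratio as low, so nothing is read from this. On chromosome 1, Tmeff2 and Nabp1, which flank it, were at 0.10 and 0.14, and Slc39a10, a zinc importer gene, was at 0.56. Over all 7 caveolar genes, 18 of 24 neighbours were measured. Against 2.3% higher and 2.92% lower over all measured genes, 2-fold values were reached by 2 neighbours, both of them higher. These were Tes and Stat3, a transcription factor gene beside Cavin1 on chromosome 11, which went from 692 to 1419 (1.04), and was at 0.57 once the poly-A spikes were equated. Cavin1, next to it, was at −0.01. With the poly-A spikes equated, 1 neighbour was at least 2-fold higher and 2 were at least 2-fold lower, against 1.05% and 14.1% of all measured genes.

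**Figure D4:**
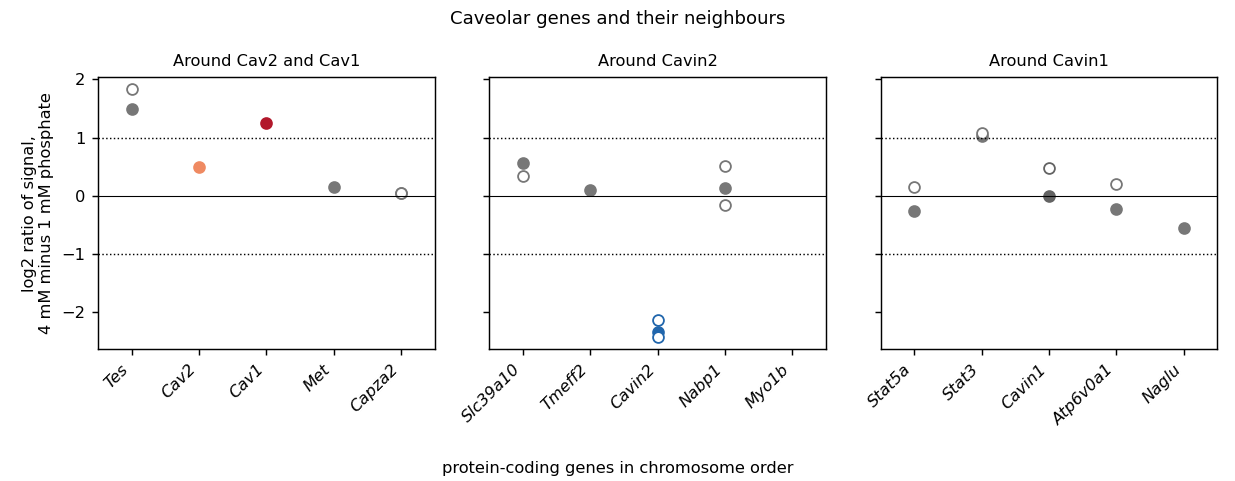
Log2 ratio of every probe set that exceeded the floor on each array, for caveolar genes and their protein-coding neighbours in chromosome order (3 panels), filled for the probe set used for the gene and coloured for Cav2, Cav1 and Cavin2. Tes, Cav2 and Cav1 lie above 0 side by side, while Cavin2, near −2.35, has neighbours between −0.16 and 0.56.

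The cultures were checked for their labelled cell type and for other cells rich in caveolae. Of 10 osteoblast markers, 7 had a probe set naming only them, all 7 were above the floor and all lay within 1.5-fold, with Col1a1 at 10139 and 11889, Ibsp at 13398 and 14449 and Sp7 at 1600 and 1223. Of 8 endothelial markers, 7, among them the defining Pecam1, Cdh5, Kdr and Tek, were below the floor on both arrays. The exception, Egfl7, gave no clear direction, as its brightest probe set read 60.4 and 33.0 (−0.87) while the other 3 gave 0.14 and, with the control below the floor, at least 0.23 and at least 0.70. The summed highest signals of this list were 139 in the control and 108 in phosphate. Of 7 adipocyte markers, 5 had a probe set, 3 were measured and all 3 were lower in phosphate, with Adipoq at 409 and 288 and Fabp4 at 1283 and 1218. Their summed signals were 1753 and 1547, while Lep and Cidec were below the floor on both arrays. Of 8 skeletal muscle markers, 5 were measured, all dim, 3 with ratios above 0 and 2 below, a median of 0.20 and summed signals of 173 and 188. Mylpf read 38.9 and 61.2, and Acta1 55.9 and 21.5. Myod1 and Myog were below the floor on both arrays. Of 7 smooth muscle and pericyte markers, 6 were measured and Myh11 was not. Of their ratios 2 were above 0 and 4 below, from −0.62 for Kcnj8 to 0.52 for Cspg4, with a median of −0.10. The summed signals were 15428 and 14430. Such sums follow the brightest probe sets of a list, here those of Acta2 and Tagln, and can hide the ratios of the dimmer ones.

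All 8 macrophage markers were measured, and all 8 were lower in phosphate under each scaling tried, with a median of −0.61. Of 11174 genes above the floor on both arrays, 55.7% had a ratio of −0.01 or lower as scaled by MAS5. The summed signals were 11954 and 10439, most of it Lyz2 at 7895 and 7745 (−0.03), a ratio smaller than the spread of 0.16. Csf1r, the receptor of the growth factor M-CSF, read 1539 and 1043 on its brightest probe set. Its other probe sets gave −0.55 and 0.15, so they disagree. The ratios of the measured adipocyte and macrophage markers ran from −0.80 to −0.03 over both lists, and that of Cavin2 was −2.35. The part of adipocytes and macrophages in the ratio of Cavin2 was not tested.

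The order of the 6 genes from Cavin2 to Cav1 was read under each processing setting. Cavin2 lay between −2.81 and −2.05 and was at least 2-fold lower under all 10 alternatives. Cav1 lay between 0.79 and 1.29 and was at least 2-fold higher under 9 of 10. Several settings could not move these values. Cav1 has a single probe set above every floor tried, so the floors and probe set rules left it at 1.25. Cavin2 stayed at −2.35 under both probe set rules and every other floor but that at 100. The counts of settings therefore do not measure how firm the ratios are. Cavin1 was the gene whose sign changed, reaching 0.01 after loess. For RNA quality, the 3′ over 5′ quotient of the actin control probe sets was 1.36 in the control and 1.43 in phosphate, and that of Gapdh 0.748 and 0.769.

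**Figure D5:**
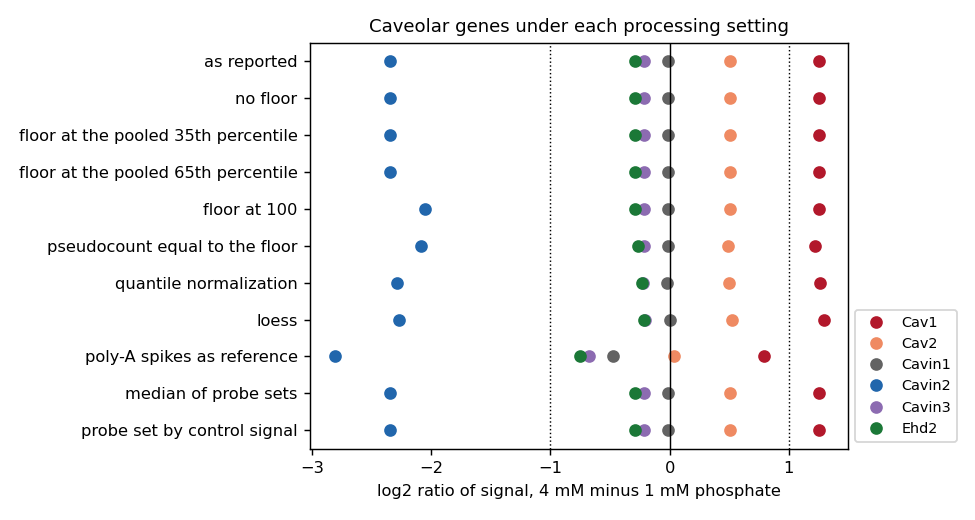
Log2 ratio, 4 mM minus 1 mM phosphate, of the 6 caveolar genes (colours) as reported and under 10 other settings of floor, scaling and choice of probe set. Dotted lines mark 2-fold. Cavin2 stays below −2 throughout, and the setting that equates the poly-A spikes shifts all genes by −0.46.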

How the data were processed

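The deposited table holds intensity values on a linear scale, 1 MAS5 signal per probe set and array, made by the authors with GCOS 1.4, per the submitters' processing notes. MAS5 scales each array by 1 factor, and the mean without the lowest and highest 2% was 200.0 on both arrays, so a change in total mRNA per cell is hidden. Detection calls were not used here.

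Of 45037 probe sets, 34945 named 1 gene, 932 several and 9160 none. Symbols were checked by Entrez identifier against the RefSeq table of GRCm38.p6, used for names and gene order, and 0 changed. Signals were raised to the pooled median (21.5) and log2 ratios were taken as phosphate minus control. Probe sets that exceeded this floor on either array, 24159 in all, counted as measured, and each gene was read from the one of highest mean log2 signal. A ratio with 1 array at the floor is a bound. The number of arrays limits the precision. No test was run, since each group had 1 array. The calculation was tested on simulated data.

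The members and lists were chosen with earlier results of these data known. By rule, all members, paralogs and dynamins could be named, and up to the 3 highest and 3 lowest of each other list. Cltc, Prkca, Flna, Ccn2, Acta2, Tagln, the cell type markers outside these limits and the neighbours were picked after their values were seen. Python 3.11.15 with pandas 2.3.3 and statsmodels 0.14.6 was used. Alternatives were 4 other floors, a pseudocount, 3 scalings and 2 rules for the probe set.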

Additional observations from a re-analysis of the deposited data

Results flagged for a closer look

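Poly-A spikes, which are outside the genes compared and served only as the reference of an alternative scaling, gave higher signals on the phosphate array for all 24 of their probe sets. The median log2 ratio was 0.46, with values from 0.20 to 0.65. Spikes that join the sample only at hybridisation gave higher signals for all 18 of theirs, with a median of 0.23. They are given because they are a signal outside the gene measurements that exceeded the control array.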

How the results depend on the processing

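The 10 alternatives left 1 caveolar gene, Cavin2, at least 2-fold lower in each case. With the poly-A spikes as reference, 0 genes were at least 2-fold higher in place of 1, 2 lay within 1.5-fold in place of 4, and the median log2 ratio was −0.58 in place of −0.11, since this setting moves every ratio by −0.46. Over all 12276 measured genes it gave 14.1% at least 2-fold lower and 1.05% higher, in place of 2.92% and 2.3%. In the other 9 settings the counts of caveolar genes were the same and their median stayed close to its reported value. Several of these settings could not change them, since a ratio does not depend on a floor that both signals exceed. The shares over all genes did change, for example to 9.73% lower and 11.2% higher without a floor. The floor at 100 makes the ratio of Cavin2 a bound (−2.05). Dim probe sets limit Cavin1 and Ehd2, whose dimmer probe sets lie near the floor or disagree. No paired analysis was possible because each group had 1 array. For the same reason no replicate could be left out.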
